A study of Homo sapiens with 6 samples.

Results

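The genes described here build the DNA replication machinery or control entry into S phase. The list of 41 names was drawn up as a functional group, and each gene is read from the probe set whose annotation names it and no other gene, the brightest where there were several. This gave values for 37 of the 41, among 14232 genes and 22011 probe sets measured in all. MCM7, POLA1, PCNA and FEN1 were not measured by this rule, because the probe set that names each of them also names another gene. Transcript levels came from 6 arrays of MO3.13, which the submitters call a human oligodendroglioma line and which is known elsewhere as a hybrid of rhabdomyosarcoma cells and cultured oligodendrocytes. The 3 Klotho-treated arrays came from cells given recombinant mouse Klotho at 0.4 µg/mL in DMEM without serum for 3.5 h after growth in 10% fetal bovine serum. The 3 control arrays came from cells described only as grown in DMEM with 10% fetal bovine serum. Klotho is a membrane and circulating protein and the co-receptor for the hormone FGF23. Medium without serum is mentioned for the treated cells alone, and the labels do not say whether the controls were also kept without serum. If they were not, exposure to Klotho and removal of serum cannot be told apart.

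Replication origins are prepared in G1, when the origin recognition complex, CDC6 and CDT1 load the ring of MCM2 to MCM7 onto DNA. At the start of S phase CDC45 and the GINS complex join that ring and turn it into the working helicase, and primase, the polymerases, the sliding clamp and its loader follow. Most of these genes are transcribed from promoters bound by E2F factors, which are released when cyclin-dependent kinases phosphorylate the RB family. Serum mitogens are the usual upstream signal for that step in cultured cells.

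The values are log2 signals after RMA (background correction, quantile normalization and summarization). The array medians lay between 6.36 and 6.47. Pairs of arrays correlated at r = 0.987 to 0.991 within groups and at 0.985 to 0.991 between groups. All 37 measured members had a mean signal above the median probe set (6.40), against 53.4% of all genes. A probe set's brightness also depends on its sequence, so levels are not ranked between genes. Among markers of the labelled lineage, 1 of 8 measured oligodendrocyte genes lay above the median probe set, namely the early myelin enzyme gene CNP. The myelin basic protein gene MBP stood at 5.27 ± 0.18 in Klotho-treated and 5.26 ± 0.15 in control cells (log2, SD, n = 3 each). Of 7 measured skeletal muscle markers, 5 lay above the median probe set. Among them was the myogenic factor gene MYOD1 at 9.63 ± 0.06 in Klotho-treated and 9.72 ± 0.11 in control cells. The mean of the 7 muscle markers lay between 8.435 and 8.445 on the Klotho-treated arrays, against 8.473 to 8.567 on the control arrays. Of the 7, 5 were lower in treated cells, as were 62.6% of all genes and 76% of genes above the median signal. These marker values are as deposited, without other scalings between arrays. The array medians were 6.355, 6.371 and 6.411 on Klotho-treated arrays 1 to 3, against 6.474, 6.381 and 6.432 on control arrays 1 to 3. The separation of the muscle marker means is therefore not shown to go beyond the overall signal of the arrays. None of the markers passed the adjusted threshold in limma. The intermediate filament gene DES differed by -0.27 (95% interval -0.47 to -0.06) and the adhesion gene NCAM1 by -0.16 (95% interval -0.35 to 0.03), both without overlap. Lower values without overlap were found for 5.3% of all genes and 6.44% of genes above the median signal. The separation of DES was also not shown to go beyond the overall signal of the arrays. Of the 8 oligodendrocyte markers, 6 were higher in treated cells and 2 lower, beside 5321 higher of all 14232 genes. Their largest difference was 0.28 for the transcription factor gene NKX2-2 (95% interval -0.05 to 0.61), with overlapping groups. The part of these markers in the values below was not tested.

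The feature that many members share is an E2F-type element close to the start of transcription. RefSeq promoters (GRCh38.p14, 250 bases before to 50 after a start) were searched on both strands for TTTCCCGC, TTTCGCGC, TTTGCCGC and TTTGGCGC. At least 1 of the 4 occurred in 19 of the 35 listed members with a promoter entry (54.3%), against 1090 of 27305 genes with an entry (3.99%). Counted by promoter, the share was 45.5% of 44 for the members, 3.31% of all 35116, 4.1% of those of protein-coding genes and 4.88% of those with at least 60% GC. The members' promoters had a median GC content of 67.8%, against 58.7% for all. Entries were not found for MCM4, MCM5, GINS4, POLD3, RPA2 and CCNE2. A match describes the letters in the window and is not evidence of binding. The windows below are shown because they hold the element in genes of licensing, elongation and G1/S control. They are printed 5′ to 3′ on the gene's strand, with the matches in capitals.
MCM6 upstream copy: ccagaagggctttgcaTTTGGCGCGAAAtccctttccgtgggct
MCM6 downstream copy: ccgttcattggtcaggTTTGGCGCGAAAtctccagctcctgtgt
MCM2: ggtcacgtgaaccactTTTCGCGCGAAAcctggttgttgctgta
MCM3: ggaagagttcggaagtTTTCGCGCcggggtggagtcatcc
CDC6: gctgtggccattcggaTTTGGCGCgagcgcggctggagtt
E2F1: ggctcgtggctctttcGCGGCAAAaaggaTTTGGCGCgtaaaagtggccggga
POLE: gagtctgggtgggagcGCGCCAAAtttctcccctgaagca
LIG1: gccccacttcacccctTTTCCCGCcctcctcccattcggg

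The MCM6 copies lie at chr2:135876568-135876611 and chr2:135876506-135876549 (minus strand), with the elements beginning 152 and 90 bases before the start. In both, the capitals are a pair of overlapping matches, with 1 on each strand. MCM2 has the same kind of overlapping pair at chr3:127598397-127598440 (plus strand), beginning 2 bases after the start. The other windows are MCM3, of its matches the nearer to the start, at chr6:52284723-52284762 (minus), CDC6 at chr17:40287870-40287909 (plus), E2F1 at chr20:33686382-33686434 (minus), POLE at chr12:132687337-132687376 (minus) and LIG1 at chr19:48170435-48170474 (minus). The E2F1 window holds 2 separate matches, which lie in the promoter of the gene for an E2F factor itself.

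The comparison of Klotho-treated with control cells asked whether any of these transcripts differed after 3.5 h. None of the 37 members passed the threshold of an adjusted p under 0.05 in limma, a linear model fitted to all 22011 probe sets with Benjamini-Hochberg adjustment, and 0% of all probe sets did. At an unadjusted p under 0.05 there was 1 member, CHAF1A, which is 2.7% of the 37, beside 2.07% of all genes. The differences ran from -0.30 for CHAF1A to 0.09 for GINS4 on the log2 scale. For 35 of the 37 members the 95% interval stayed inside 1.5-fold both up and down, as it did for 91.7% of all genes. The exceptions were CHAF1A and POLD3.

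**Figure D1:**
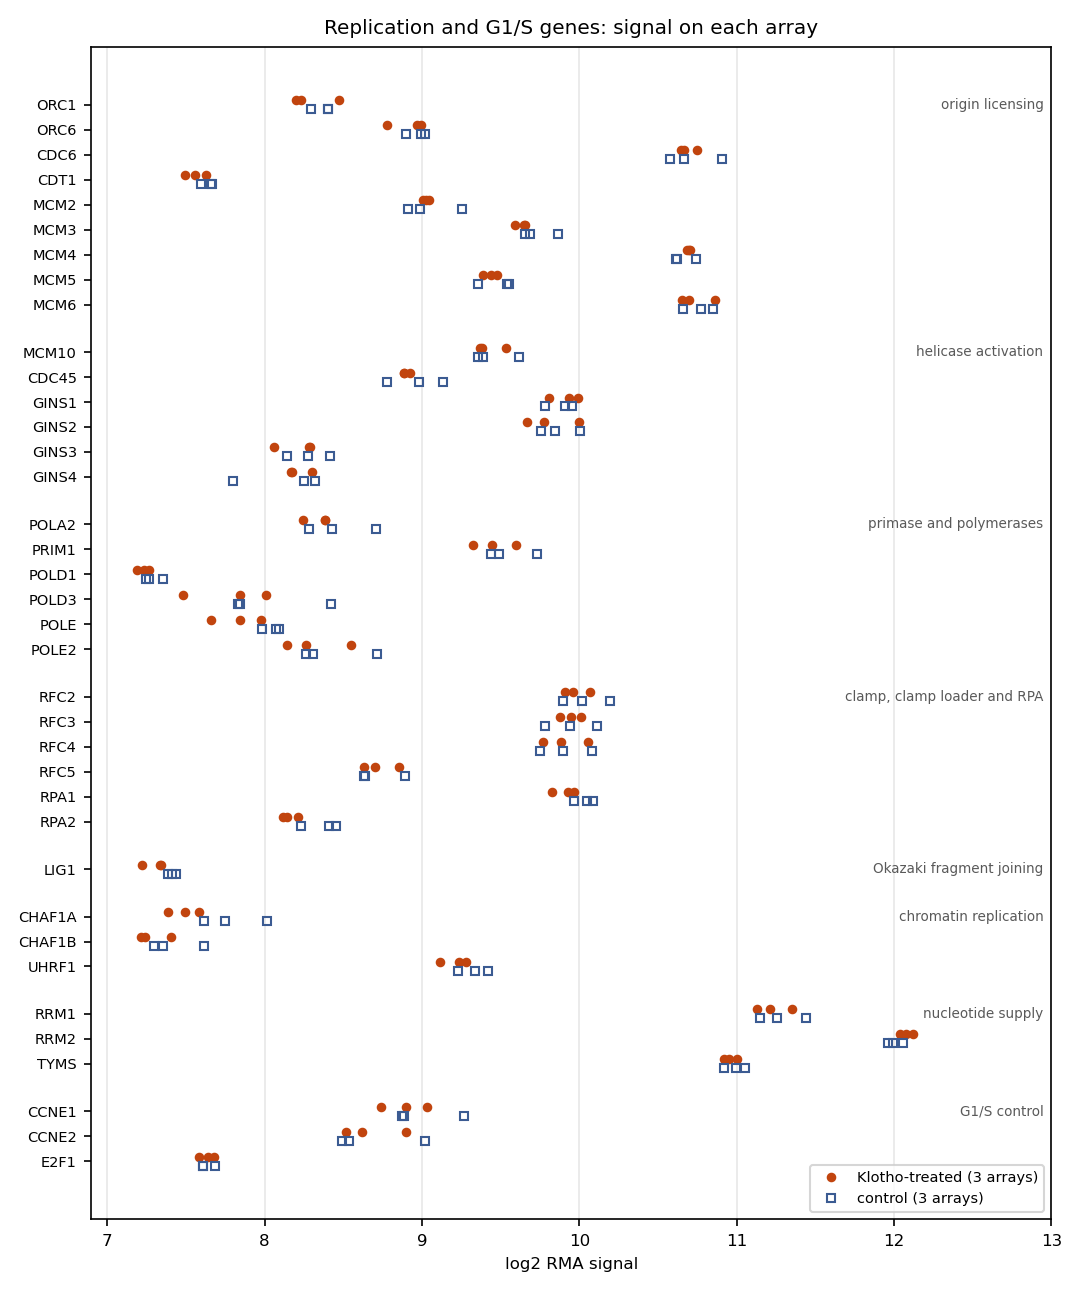
Signal of the 37 measured genes on each array (log2 RMA signal on the horizontal axis, genes grouped by role down the page). Filled circles are the 3 Klotho-treated arrays and open squares the 3 control arrays. The groups overlap for all genes but MCM3, POLE, RPA2, LIG1 and CHAF1A.

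Among the licensing genes, 8 of 9 measured members had a lower mean in Klotho-treated cells and none passed, with a median difference of -0.05. Lower means were also found for 62.6% of all genes and 76% of the 7597 genes above the median signal, and with each array centred on its median 5 of the 9 were lower. CDC6, the ATPase that recruits the helicase to origins, read 10.65, 10.67 and 10.75 on the Klotho-treated arrays, against 10.91, 10.57 and 10.67 on the control arrays. The controls spread on both sides of the treated values. The CDC6 difference was -0.03 (95% interval -0.28 to 0.23; limma, adjusted p = 0.998). CDT1, the loading factor that is destroyed once S phase begins, read 7.56, 7.63 and 7.50 in Klotho-treated cells and 7.67, 7.60 and 7.66 in control cells. Its groups overlapped, and the difference was -0.08 (95% interval -0.26 to 0.10). ORC1 and ORC6, subunits of the origin recognition complex, differed by -0.06 each.

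The 5 measured subunits of the helicase ring had differences between -0.10 and 0.03. MCM2 read 9.05, 9.03 and 9.01 in Klotho-treated cells, against 8.99, 8.91 and 9.26 in control cells, a difference of -0.03 (95% interval -0.28 to 0.23). The treated arrays lay together inside the range of the controls. MCM5 read 9.39, 9.44 and 9.47 in Klotho-treated and 9.55, 9.36 and 9.54 in control cells, a difference of -0.05 (95% interval -0.26 to 0.16). MCM4 differed by 0.03 (95% interval -0.15 to 0.22) and MCM6 by -0.02 (95% interval -0.25 to 0.21). MCM3 was the only licensing gene whose groups did not overlap. It read 9.59, 9.65 and 9.65 in Klotho-treated cells and 9.66, 9.69 and 9.86 in control cells, a difference of -0.10 (95% interval -0.31 to 0.10; limma, adjusted p = 0.998). The nearest treated and control arrays of MCM3 read 9.652 and 9.657, and the difference was -0.04 without control array 3.

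Of the 6 genes that activate the helicase, 4 were lower and 2 higher in Klotho-treated cells, and none passed. CDC45, the helicase cofactor that joins at firing, read 8.89, 8.93 and 8.89 in Klotho-treated cells, against 9.13, 8.78 and 8.98 in control cells. Its difference of -0.06 (95% interval -0.32 to 0.19) was smaller than the SD of the controls (0.18). The GINS subunits went both ways, with 0.03 for GINS1, -0.06 for GINS2, -0.07 for GINS3 and 0.09 for GINS4. The GINS4 value rested on control array 2, which read 7.80 against 8.25 and 8.32 on control arrays 1 and 3, and its difference was -0.07 without that array. MCM10, which helps the helicase begin unwinding, differed by -0.03.

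All 6 measured primase and polymerase genes had a lower mean in Klotho-treated cells, with a median of -0.12, and none passed. Of genes above the median signal, 76% were lower too. POLE, the catalytic subunit of the leading-strand polymerase epsilon, read 7.66, 7.84 and 7.98 in Klotho-treated cells, against 8.09, 8.07 and 7.98 in control cells. The groups did not overlap, although the highest treated and the lowest control value were 7.980 and 7.984. The POLE difference was -0.22 (95% interval -0.47 to 0.03; limma, adjusted p = 0.998), and -0.14 without Klotho-treated array 1. POLD3, an accessory subunit of the lagging-strand polymerase delta, read 7.48, 7.84 and 8.01 in Klotho-treated and 8.42, 7.84 and 7.83 in control cells. Klotho-treated array 1 and control array 1 stood apart from the other 4 in opposite directions. The POLD3 difference of -0.25 had the widest interval of the members (95% interval -0.76 to 0.25), and it was -0.06 without control array 1. POLA2, PRIM1, POLD1 and POLE2 differed by -0.14, -0.10, -0.06 and -0.11.

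The clamp loader genes, which place PCNA on DNA, had mean differences near 0 and intervals within 1.5-fold. RFC2, RFC3, RFC4 and RFC5 had differences of -0.05, 0.00, -0.01 and 0.01. The subunits of RPA, which coats single-stranded DNA, had larger differences that did not pass. RPA2 read 8.14, 8.12 and 8.21 in Klotho-treated cells, against 8.41, 8.23 and 8.45 in control cells. Its groups did not overlap, with 8.211 as the highest treated and 8.233 as the lowest control value. The RPA2 difference was -0.21 (95% interval -0.42 to 0.01; limma, adjusted p = 0.998). RPA1, the large DNA-binding subunit, differed by -0.13 (95% interval -0.32 to 0.07). LIG1, the ligase that seals Okazaki fragments, read 7.22, 7.34 and 7.34 in Klotho-treated and 7.38, 7.41 and 7.43 in control cells, without overlap. The LIG1 difference was -0.11 (95% interval -0.29 to 0.07; limma, adjusted p = 0.998), and -0.07 without Klotho-treated array 1.

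Genes that rebuild chromatin behind the fork had the lowest mean difference of the roles, at -0.19 over 3 members. CHAF1A, the large subunit of chromatin assembly factor 1, which deposits new histones on replicated DNA, read 7.38, 7.49 and 7.58 in Klotho-treated cells, against 7.61, 8.01 and 7.75 in control cells. All treated arrays lay below all control arrays. The CHAF1A difference was -0.30 (95% interval -0.60 to -0.01), with an unadjusted p of 0.0457 and an adjusted p of 0.998 in limma. It was -0.19 without control array 2. CHAF1B, a further subunit of the same factor, differed by -0.14 (95% interval -0.41 to 0.13) with overlapping groups. UHRF1, which guides the copying of DNA methylation, read 9.24, 9.28 and 9.11 in Klotho-treated and 9.42, 9.23 and 9.33 in control cells, a difference of -0.12 (95% interval -0.33 to 0.10).

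The 3 enzymes that supply deoxynucleotides had differences between -0.05 and 0.08. RRM2, the regulatory subunit of ribonucleotide reductase, whose abundance tracks S phase, read 12.08, 12.04 and 12.12 in Klotho-treated cells and 11.99, 11.96 and 12.06 in control cells. The difference was 0.08 (95% interval -0.10 to 0.25), the highest after GINS4. TYMS, thymidylate synthase, read 10.92, 11.00 and 10.95 in Klotho-treated cells, against 11.05, 10.92 and 10.99 in control cells, a difference of -0.03 (95% interval -0.22 to 0.15). RRM1, the catalytic subunit, differed by -0.05.

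For the regulators of the G1/S step the bounds differed between genes. E2F1, the activating transcription factor of the pathway, read 7.58, 7.68 and 7.64 in Klotho-treated and 7.68, 7.61 and 7.61 in control cells. Its means were 7.63 ± 0.05 and 7.64 ± 0.04 (SD, n = 3 each), and the 95% interval of the difference ran from -0.18 to 0.18. CCNE1, the gene of cyclin E1, which activates CDK2 at the G1/S boundary, read 8.74, 8.90 and 9.04 in Klotho-treated cells, against 9.27, 8.87 and 8.89 in control cells. The difference of -0.12 (95% interval -0.45 to 0.22) was 0.01 without control array 1. CCNE2, which encodes cyclin E2, read 8.62, 8.52 and 8.90 in Klotho-treated and 9.02, 8.54 and 8.50 in control cells, a difference of -0.00473 (95% interval -0.43 to 0.42). Control array 1 was the highest of the 6 for both cyclin genes. The CCNE2 difference was 0.16 without that array and -0.12 without Klotho-treated array 3.

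**Figure D2:**
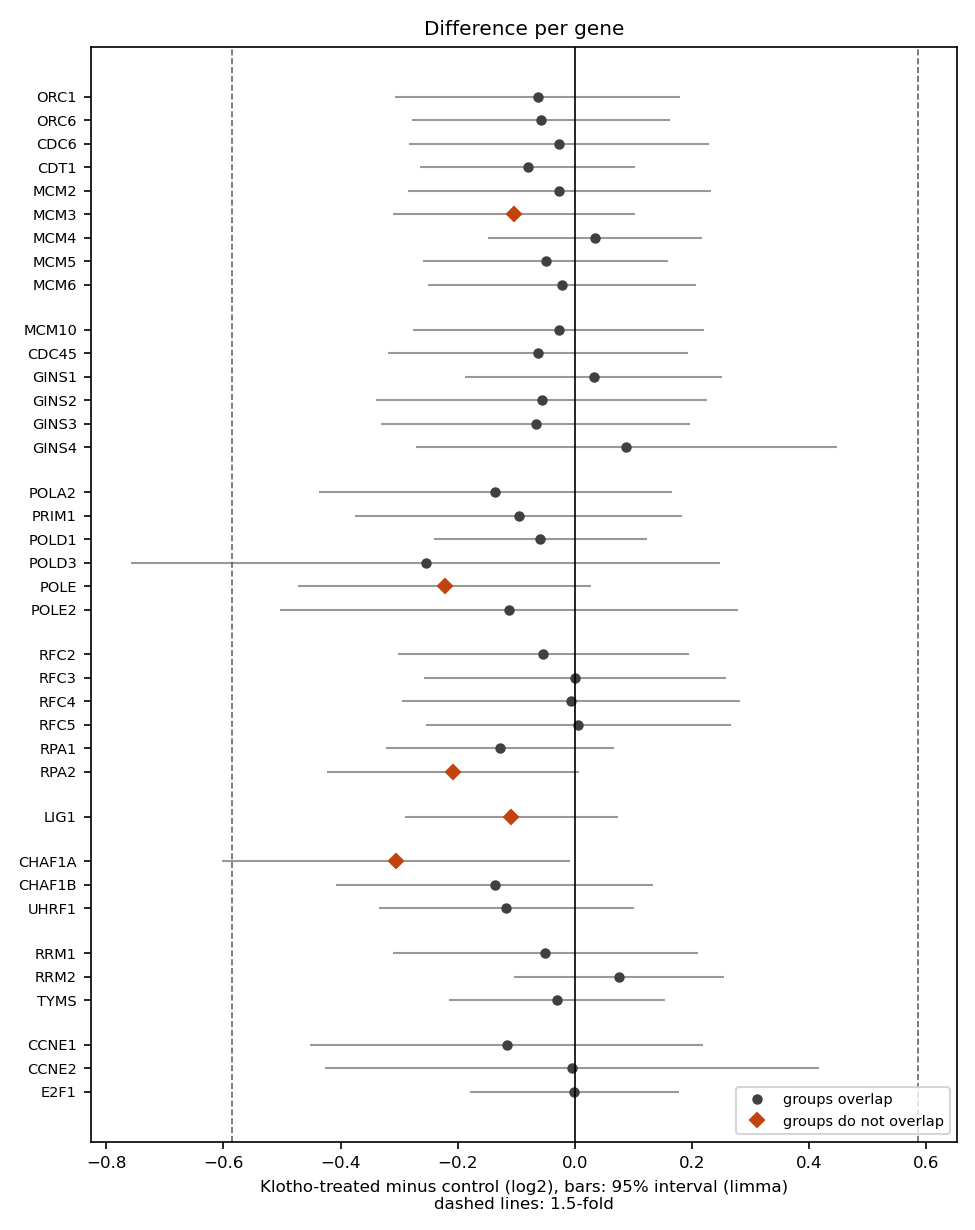
Difference between Klotho-treated and control cells for each member (log2, limma), with 95% intervals as bars and dashed lines at 1.5-fold in either direction. Points lie between -0.30 and 0.09; diamonds mark the 5 genes whose groups do not overlap, and the intervals of CHAF1A and POLD3 cross a dashed line.

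Groups did not overlap for 5 of the 37 members, all lower in Klotho-treated cells, which is 13.5%. The same pattern was found for 5.3% of all genes and for 6.44% of the 7597 genes above the median signal. In the opposite direction it was found for 0 members and 2.59% of all genes. Under other scalings between arrays fewer members had this pattern. With each array centred on its median it was 1 (RPA2; 2.7%, beside 2.14% of all genes). With quantile normalization it was 2 (POLE and RPA2; 5.41%, beside 2.71%), and with cyclic loess 3 (POLE, RPA1 and RPA2; 8.11%, beside 3.27%). RPA2 was on each of these lists, with differences of -0.16 to -0.15 under the 3 scalings. For MCM3, LIG1 and CHAF1A the groups overlapped under all 3. In the other direction RRM2 alone (2.7% of the members) had no overlap with median centring and with quantile normalization, beside 4.88% and 3.46% of all genes.

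As deposited the members leaned one way, and so did other bright genes. Of the 37, 31 had a lower mean in Klotho-treated cells (83.8%), beside 62.6% of all genes and 76% of genes above the median signal. The median difference was -0.06 over the members and -0.06 over the genes above the median signal, against -0.03 over all genes. With each array centred on its median 23 members were lower (62.2%), beside 53.1% of the brighter genes and 42.7% of all genes. With quantile normalization or cyclic loess 25 members were lower (67.6%), beside 51.8% and 53.4% of the brighter genes. The members' median was -0.00834 with median centring, -0.0214 with quantile normalization and -0.0164 with cyclic loess. Over the brighter genes it was -0.00602, -0.00365 and -0.00614 in the same order. By role, median centring left 6 of 6 primase and polymerase genes and 3 of 3 chromatin genes lower, but 3 of 6 helicase activators and 1 of 3 G1/S regulators. The primase and polymerase genes lower numbered 5 of 6 with quantile normalization, with cyclic loess and without control array 1. Their median was -0.04 without that array. Over all members, 20 were lower without control array 1 (54.1%), beside 55.5% of the brighter genes and 53% of all genes.

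**Figure D3:**
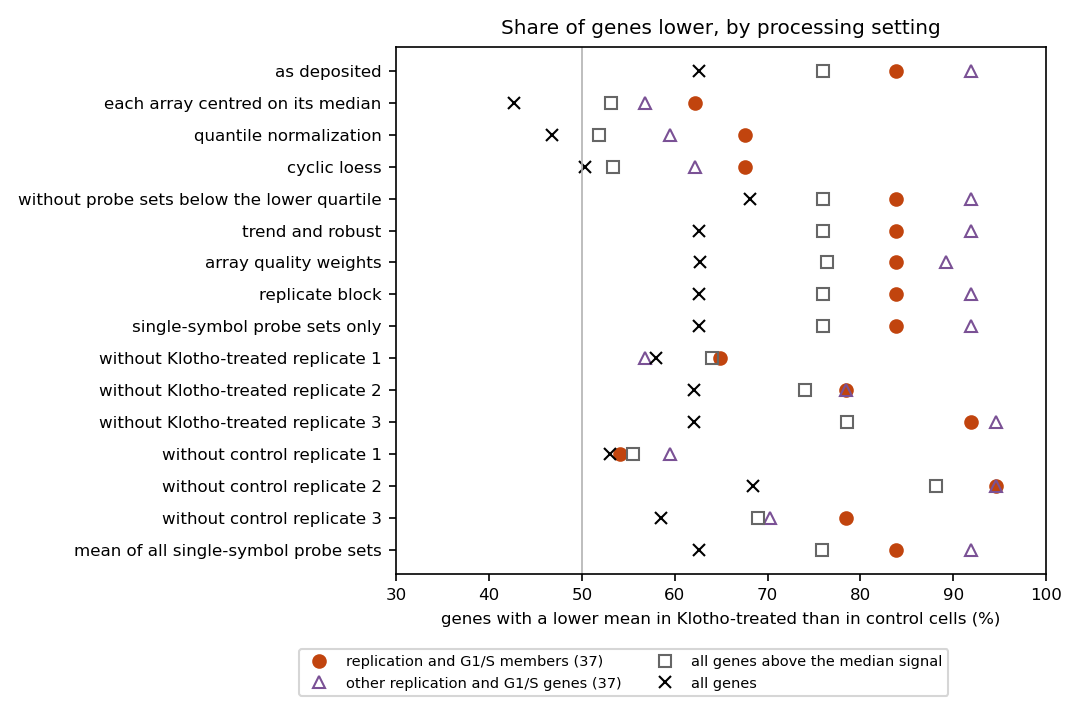
Percentage of genes with a lower mean in Klotho-treated than in control cells under each processing setting, for the 37 members, 37 other replication and G1/S genes, genes above the median signal and all genes. The members' share lies between 54.1% without control array 1 and 94.6% without control array 2, beside 55.5% and 88.2% of the genes above the median signal.

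The lean was uneven between arrays. Averaged over the members, the signal was 9.01, 9.07 and 9.15 on Klotho-treated arrays 1, 2 and 3, against 9.23, 9.06 and 9.14 on control arrays 1, 2 and 3. The groups overlapped, and the difference of the means (-0.0691) was smaller in size than the SD among the treated arrays (0.0731) and among the control arrays (0.0880). Klotho-treated array 1 was the lowest of the 6 for 18 members, and control array 1 the highest for 21. The same arrays were the lowest and the highest in median signal of all probe sets. On them 38.8% and 63.5% of all genes lay above their own mean over the 6 arrays. Across the 6 arrays the members had a mean pairwise correlation of 0.373 (666 pairs), against 0.05 over all pairs of genes. Once each group's mean was taken out, the members' value was 0.345, against 0.044 over all pairs. The members all lie above the median signal, and no such value was computed for the brighter genes. The higher correlation is therefore not shown to be particular to the members. All pairs share the arrays and their overall signal. None of the members passed the adjusted threshold. In whole cultures a different share of cells in S phase and a different RNA level per such cell could not be told apart.

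**Figure D4:**
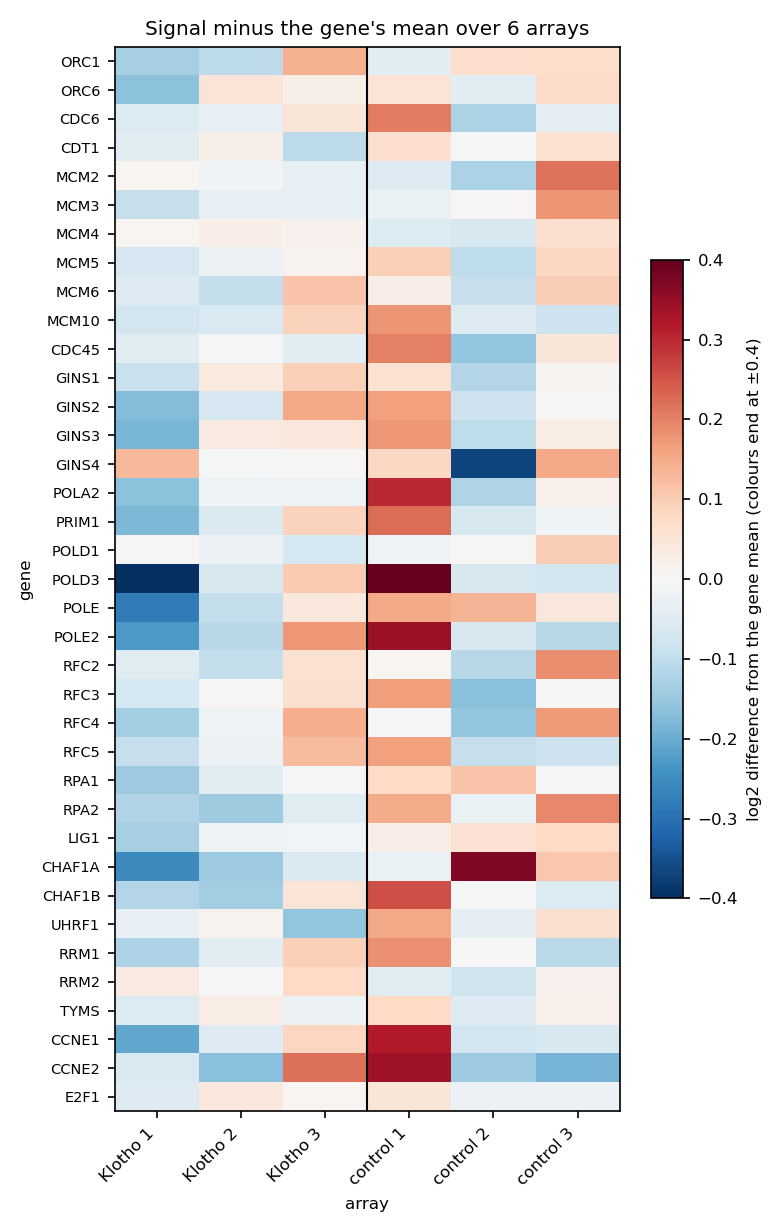
Signal of each member on each array minus that gene's mean over the 6 arrays (log2; red above, blue below, colours ending at ±0.4), Klotho-treated arrays left of the line and control arrays right of it. Klotho-treated array 1 is above the gene mean for 5 of the 37 members and Klotho-treated array 3 for 25, and control array 1 for 29. Of all genes, 38.8%, 50.9% and 63.5% were above their own mean on these arrays, in the same order.

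Members with and without the promoter element had similar medians, which were not tested against each other. The 16 measured members with a match had a median difference of -0.06, ranging from -0.22 to 0.03, and the 15 without one had a median of -0.06, ranging from -0.30 to 0.08. CHAF1A and RPA1 were among those without a match, and POLE, LIG1 and MCM3 among those with one.

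Other genes of the same process were described from a separate list of 42, of which 37 had a probe set of their own. None passed the adjusted threshold in limma, and none had an unadjusted p under 0.05. As deposited, 34 of the 37 were lower in Klotho-treated cells (91.9%), with a median of -0.06, beside 62.6% of all genes and 76% of the brighter genes. With each array centred on its median 21 were lower (56.8%), beside 42.7% of all genes and 53.1% of the brighter genes. The groups did not overlap for 2 of the 37 (5.41%), both lower. That share was near the 5.3% of all genes and 6.44% of the brighter genes with this pattern. RECQL4, a helicase needed for origin firing, read 7.24, 7.23 and 7.27 in Klotho-treated cells, against 7.36, 7.37 and 7.36 in control cells, a difference of -0.12 (95% interval -0.28 to 0.05). POLE3, a histone-fold subunit of polymerase epsilon, read 7.77, 8.13 and 8.04 in Klotho-treated cells and 8.16, 8.16 and 8.16 in control cells, a difference of -0.19 (95% interval -0.45 to 0.08). At least 1 of the 4 promoter elements occurred in 15 of the 33 genes of this list with an entry (45.5%).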

How the data were processed

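Total RNA (100 ng) was amplified by the NuGEN protocol and hybridised as biotinylated cDNA, per the labels' protocols. The authors deposited log2 values, already summarized to probe sets. RMA is named in the submitters' processing notes, with no version, and the sources used here give no software, annotation or filter. Groups and replicate numbers came from the sample titles. Of 22011 probe sets, 14432 were annotated with 1 gene symbol, 2408 with several and 5171 with none. Differences were fitted with lmFit and eBayes of limma (version 3.58.1, run in R 4.3.3, 2-sided, with neither filter nor covariate) on all probe sets, and the fit was tested on simulated data. The members, their roles and the lists were chosen with earlier results of these data known. Values per array are given for members whose groups did not overlap or whose unadjusted p was under 0.05, and for a fixed set covering each role. Nothing in the labels says that replicate arrays were separate cultures; the p-values then reflect only how far these arrays scatter, and that scatter may be technical. Arrays give no read depth, and their number limits the precision. Alternatives were other scalings, removal of dim probe sets, a variance trend with robust fitting, single-symbol probe sets alone, array weights, the replicate number as a block, gene means and leaving out each array.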

Additional observations from a re-analysis of the deposited data

How the results depend on the processing

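No member and no probe set passed the adjusted threshold in limma under any alternative run, and 5 of the 15 alternatives left the members' differences as they are, since each member has 1 single-symbol probe set and the others alter only the variance, the block or which further probe sets are fitted. Under the other 10, 57 of 370 member differences changed sign, in 21 of the 37 members; a gene without overlap between its groups cannot change sign when 1 array is left out. The number of probe sets with an unadjusted p under 0.05 was 703 of 22011. Without dim probe sets it was 436, with single-symbol probe sets only 447 and with array quality weights 1644. With a variance trend it was 682, with the replicate block 662 and under the 3 other scalings 693 to 763. It was 577 to 1200 when 1 array was left out, the 1200 without Klotho-treated array 3. Of the members it was 1, against 0 under each of the 3 other scalings and with the replicate block, 2 with a variance trend, array weights or single-symbol probe sets only, and 0 to 1 when 1 array was left out. The 2 were CHAF1A and RPA2 each time. With 1 array left out, the member was CHAF1A without control array 1, RPA2 without control array 2 and POLE without Klotho-treated array 3. Of the other replication genes, the number with an unadjusted p under 0.05 was 0. It was 2 with array weights and 0 to 4 when 1 array was left out, the 4 without Klotho-treated array 3. In these settings 1644 and 1200 of all 22011 probe sets had an unadjusted p under 0.05. Members lower in Klotho-treated cells numbered 20 to 35 when 1 array was left out, the 20 without control array 1. The other replication genes lower numbered 21 with median centring, 22 with quantile normalization and 21 to 35 when 1 array was left out, with 21 without Klotho-treated array 1 and 22 without control array 1. The share of all genes lower was 62.6% as deposited, 42.7% with median centring, 46.8% with quantile normalization and 50.3% with cyclic loess. Members without overlap between the groups numbered 5, 1, 2 and 3 in the same order, beside 5.3%, 2.14%, 2.71% and 3.27% of all genes. Same-numbered arrays did not deviate together (correlations of -0.18, 0.06 and -0.14), so no pairing by number was seen in the values. With 3 arrays per group this cannot settle whether the samples were handled in pairs. The replicate block cannot move a difference in this balanced design (31 members lower, median -0.06), only its p. No detection calls were used, so how far single probe sets stood above background was not examined.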
